A study of Mus musculus with 8 samples.

Results

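The potassium channel genes of the left ventricle (LV) were taken as the genes of the counts table whose mouse symbol begins with Kcn, goes on with 1 to 3 letters and ends in a number. This rule gave 92 of the 46040 genes in the table. They cover the pore subunits of the voltage-gated, inwardly rectifying, two-pore-domain and calcium-activated channels and their auxiliary subunits. A gene was tested where its CPM, the count scaled to the size of the library, was 1 or more in 2 or more of the 8 libraries. This held for 45 of the 92 potassium channel genes and for 13542 genes in all. Another 7 genes with a symbol that begins with Kcn fell outside the rule, among them the antisense genes *Kcnd3os* and *Kcnq1ot1* and the regulator *Kcnrg*.

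The libraries were made from RNA of the LVs of male C57BL/6 mice aged 5 to 7 months, collected on day 14 of an infusion of angiotensin II (angII, 0.1 mg/kg/h) from a subcutaneous pump. Control mice were littermates of VEGFR-1 TK-/- mice, which carry, in every cell of the body, an allele of *Flt1* without the tyrosine kinase domain of VEGFR-1. There were 4 libraries per genotype, all of them angII-infused, and no uninfused LV was analysed here. The labels of each library disagree on its genotype, since the sample title gives the opposite of what the tag and the library name give. Grouping followed the tags, the groups are named control-tagged and TK-tagged after them, and every difference is TK-tagged minus control-tagged. If the titles are right, each sign reverses. Only mice that lived to day 14 could be sampled. The labels refer to cardiomyocytes where the methods describe LV tissue. No source says more of the replicates than that they came from separate mice.

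Potassium channels carry the outward currents that bring the membrane of a cardiomyocyte back to its resting potential after each beat. In the mouse ventricle a fast transient outward current and slower delayed rectifiers end the short action potential, inward rectifiers hold the resting potential, and channels gated by ATP, acetylcholine or calcium adjust it. Pore subunits assemble as tetramers or, in two-pore-domain channels, as dimers, and auxiliary subunits set their trafficking and gating.

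The counts per library lay between 11449137 and 16239670, so that 1 CPM stood for 11 to 16 counts. The potassium channel genes together took 0.131% to 0.156% of the counts. Their summed level was 1408 ± 216 normalized CPM (SD, n = 4; range 1170 to 1685) in the control-tagged libraries and 1510 ± 118 (SD, n = 4; range 1398 to 1659) in the TK-tagged libraries, and these ranges overlapped. *Flt1* stood at 56.9 to 84.3 normalized CPM in the control-tagged and 144 to 169.6 in the TK-tagged libraries. Its counts cover the whole gene, also the part before the deleted domain, and do not check the labels. The 8 markers of ventricular cardiomyocytes summed to 53637 to 82249 normalized CPM in the control-tagged and 67461 to 89895 in the TK-tagged libraries, with the lowest sum in control-tagged replicate 2. The 5 atrial markers summed to 3.68 to 5.98 over all 8 libraries, the 6 skeletal muscle markers to 0.72 to 2.31, with *Myh2* and *Myh4* at 0, and the 4 adipocyte markers to at most 0.218, with *Plin1* and *Lep* at 0.

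Of the 47 potassium channel genes that were not tested, 14 had no count in any library and 33 had at least 1. The highest count among them was 17, for *Kcnq5*, and 18 of the 33 had at most 2 counts in every library. The 14 without a count were *Kcna10*, *Kcnf1*, *Kcng3*, *Kcnh5*, *Kcnip4*, *Kcnj6*, *Kcnj13*, *Kcnk9*, *Kcnk15*, *Kcnk16*, *Kcnk18*, *Kcnmb2*, *Kcnmb3* and *Kcnv1*. Among those with some counts was *Kcnma1*, the pore of the large-conductance calcium-activated channel of smooth muscle, with 0 to 9 counts. Of the 45 genes tested, 36 reached 1 CPM in all 8 libraries and 9 in 2 to 7 of them. *Kcne3* reached it in control-tagged libraries only, in 2 of them.

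Levels of different genes were compared as normalized CPM per kb of exon, averaged over the 8 libraries. *Kcnk3*, which encodes the acid-sensitive background channel TASK-1, had the highest level at 91.9 ± 12.9 per kb (SD, n = 8). It alone made up 23.6% of the summed level per kb of the 45 genes. *Kcnip2*, which encodes KChIP2, the calcium-binding partner of Kv4 pores, followed at 66.6 ± 12.4 per kb. *Kcng2*, a silent subunit that forms channels only together with Kv2 pores, had 50.3 ± 9.82 per kb. These 3 genes held 53.65% of the summed level per kb and the first 10 genes held 86.3%. After a gap the ATP-sensitive pore genes *Kcnj11* (24.0 ± 3.68 per kb) and *Kcnj8* (23.5 ± 7.30 per kb) and the delayed rectifier gene *Kcna5* (23.5 ± 4.86 per kb) lay side by side.

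**Figure D1:**
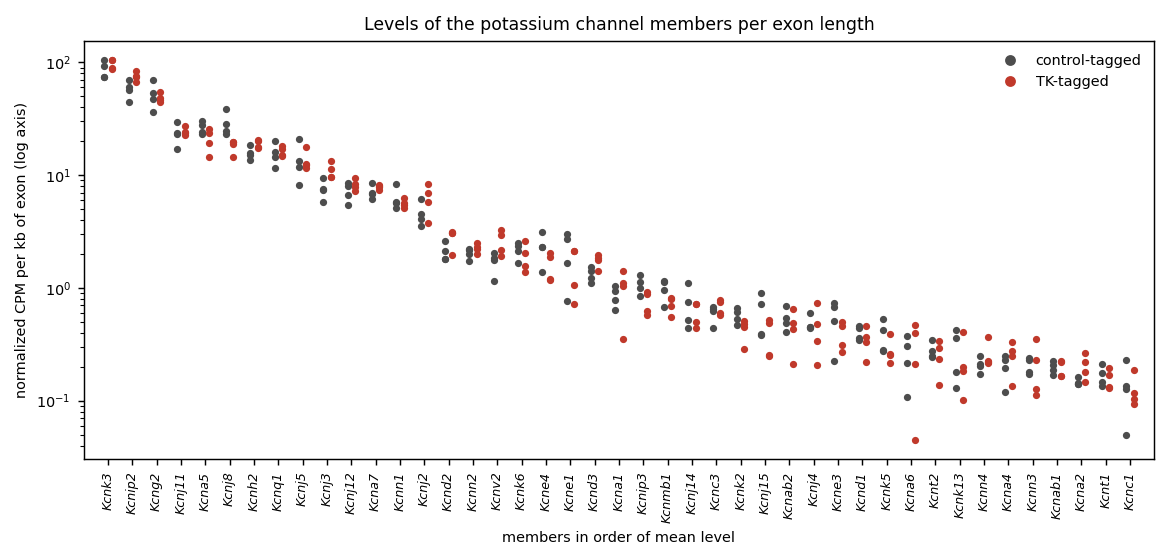
Level of 43 of the 45 potassium channel genes tested (2 are not reported here), as normalized CPM per kb of exon on a log axis, in order of the mean over all libraries, with 1 point per library (4 control-tagged in grey and 4 TK-tagged in red). The points of *Kcnk3* lie between 74.0 and 106 per kb and the means of 22 genes under 1 per kb, and neighbours among the genes shown overlap except after *Kcng2* and after *Kcnj2*.

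Among the genes shown, the libraries of neighbouring genes overlapped at all but 2 places in this order. *Kcng2*, with 36.0 to 69.8 per kb, did not overlap with *Kcnj11*, with 17.1 to 29.7, and *Kcnj2*, with 3.53 to 8.43, did not overlap with *Kcnd2*, with 1.80 to 3.12. Counted over all exons, the order therefore separates a group of 3 genes, a group of 11 from *Kcnj11* to *Kcnj2*, and the rest. The middle group also held *Kcnh2* (17.4 ± 2.44 per kb), *Kcnq1* (15.9 ± 2.58 per kb), *Kcnj5* (13.6 ± 3.96 per kb) and *Kcnj3* (9.28 ± 2.40 per kb). The Kv4 pore genes *Kcnd2* (2.44 ± 0.586 per kb) and *Kcnd3* (1.53 ± 0.300 per kb) lay in the lowest group, far below *Kcnip2*. Counted over the longest transcript in place of all exons, *Kcnn2* moved from 2.14 to 4.33 per kb and *Kcnq1* from 15.9 to 21.5 per kb, and the first 6 genes kept their order. The mean of *Kcnn2* then lay within the range of *Kcnj2*, which did not move, so that the gap after *Kcnj2* closed.

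No potassium channel gene passed the test between the genotypes, which was the quasi-likelihood F test of edgeR with a false discovery rate (FDR) under 0.1 over all genes tested and a fold change of 1.5 or more in either direction. This compares with 1 gene called among the 13542, or 0.00738%. The smallest FDR of a potassium channel gene was 0.442. With the likelihood ratio test of edgeR, *Kcnj8* alone of the 45 genes was called, or 2.22%, where 0.391% of all genes were. At an unadjusted p under 0.05 the quasi-likelihood test marked 8 of the 45 genes, or 17.8%, against 8.96% of all genes. Of these, 6 were higher in the TK-tagged libraries, or 13.3% of the genes tested against 3.32% of all genes. The other 2 were lower, or 4.44% against 5.64% of all genes. The 4 control-tagged and 4 TK-tagged libraries did not overlap for 2 of the 45 genes, *Kcnj3* and *Kcnj8*, which is 4.44% against 4.98% of all genes. With 1 library left out, 5 to 12 potassium channel genes had an unadjusted p under 0.05. There were 5 without control-tagged replicate 2, TK-tagged replicate 2 or TK-tagged replicate 3 and 12 without TK-tagged replicate 4. This is 11.1% to 26.7% of those tested, against 5.25% to 10.1% of all genes. The share of all genes was 5.25% without TK-tagged replicate 2 and 9.94% without TK-tagged replicate 4. *Kcnd3*, *Kcnj3* and *Kcnj8* were among the potassium channel genes under that p each time. Each of the other 5 of the 8 was above it without at least 1 of the libraries. The number of potassium channel genes under it that were higher in the TK-tagged libraries was 2 to 8. It was 2 without TK-tagged replicate 3 and 8 without TK-tagged replicate 4. The share of all genes in that direction was not taken for these fits.

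**Figure D2:**
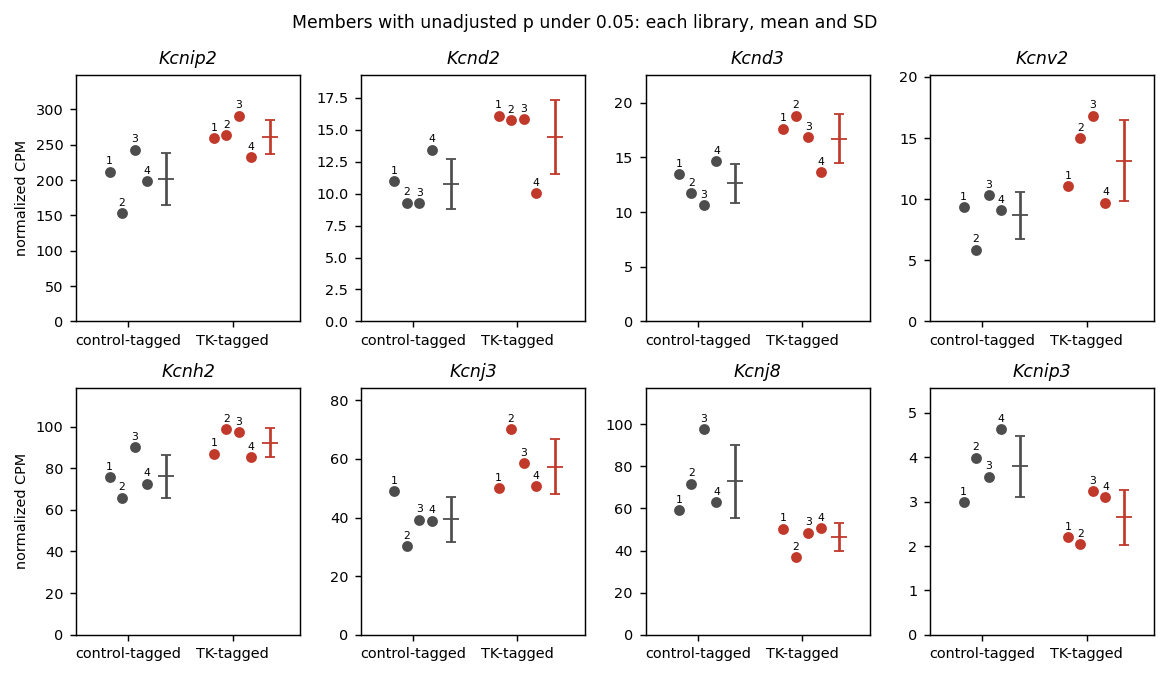
Normalized CPM of the 8 potassium channel genes with an unadjusted p under 0.05, with 1 point per library numbered by replicate and the mean and SD of each group beside the points. The groups are apart for *Kcnj8*, which is lower in the TK-tagged libraries, and for *Kcnj3*, which is higher there, and share part of their range for the other 6 genes.

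The transient outward current is carried by Kv4.2 (*Kcnd2*) and Kv4.3 (*Kcnd3*) with KChIP2 (*Kcnip2*), and the RNAs of all 3 were higher on average in the TK-tagged libraries. The promoters of these 3 genes are shown because their RNAs differed in the same direction, and those of the pores *Kcnj8* and *Kcnj3* because their groups did not overlap. Each runs 5′ to 3′ on the strand of the gene from 250 bases before to 50 bases after a RefSeq transcript start (build GRCm38.p6), and capitals mark the GC box GGGCGG, searched on both strands.
Kcnd2 promoter, chr6:21215096-21215395, plus strand: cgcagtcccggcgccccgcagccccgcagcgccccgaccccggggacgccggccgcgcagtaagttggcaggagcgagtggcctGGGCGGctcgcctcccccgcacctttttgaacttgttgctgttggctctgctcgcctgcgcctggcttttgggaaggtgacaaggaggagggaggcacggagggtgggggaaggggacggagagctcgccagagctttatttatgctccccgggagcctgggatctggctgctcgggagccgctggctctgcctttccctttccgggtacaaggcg
Kcnd3 promoter, chr3:105451640-105451939, plus strand: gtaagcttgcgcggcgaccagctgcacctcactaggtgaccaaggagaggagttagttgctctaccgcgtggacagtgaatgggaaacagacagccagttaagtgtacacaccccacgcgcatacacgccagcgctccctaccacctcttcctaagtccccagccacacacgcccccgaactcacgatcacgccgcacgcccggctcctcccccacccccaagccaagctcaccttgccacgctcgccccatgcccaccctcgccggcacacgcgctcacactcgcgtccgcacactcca
Kcnip2 promoter, chr19:45816014-45816313, minus strand: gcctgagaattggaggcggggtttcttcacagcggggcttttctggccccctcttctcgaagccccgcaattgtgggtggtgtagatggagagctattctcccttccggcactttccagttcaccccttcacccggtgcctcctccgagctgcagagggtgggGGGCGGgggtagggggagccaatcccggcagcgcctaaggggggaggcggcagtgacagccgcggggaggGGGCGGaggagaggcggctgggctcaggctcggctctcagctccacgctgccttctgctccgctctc
Kcnj8 promoter, chr6:142571565-142571864, minus strand: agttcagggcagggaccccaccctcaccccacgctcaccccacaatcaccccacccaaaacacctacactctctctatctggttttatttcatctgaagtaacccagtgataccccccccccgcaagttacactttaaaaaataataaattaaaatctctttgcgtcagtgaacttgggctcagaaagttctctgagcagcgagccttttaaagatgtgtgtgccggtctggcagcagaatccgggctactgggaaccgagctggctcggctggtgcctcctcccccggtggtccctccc
Kcnj3 promoter, chr2:55435720-55436019, plus strand: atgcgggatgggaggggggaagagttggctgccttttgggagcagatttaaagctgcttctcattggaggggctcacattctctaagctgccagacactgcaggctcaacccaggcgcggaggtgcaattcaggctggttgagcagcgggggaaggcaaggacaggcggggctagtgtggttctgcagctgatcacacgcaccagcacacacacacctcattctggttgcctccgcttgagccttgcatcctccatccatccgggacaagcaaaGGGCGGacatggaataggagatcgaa

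The Kv4 and KChIP2 promoters were rich in G and C, at 68.7% for *Kcnd2*, 64.0% for *Kcnd3* and 67.0% for *Kcnip2*, with 26, 25 and 18 CpG dinucleotides. Those of *Kcnj3* and *Kcnj8* held 57.7% and 53.3%, with 10 and 9 CpG dinucleotides. The GC box was found once for *Kcnd2* and *Kcnj3*, at 2 places for *Kcnip2* and not for *Kcnd3* and *Kcnj8*. It is present in 35.7% of the 32851 promoters of this length in the RefSeq table. None of the 5 windows held the letters TATAAA (13.6% of all promoters), CACGTG (7.15%) or AGATAA (11.2%) on either strand. Of the 45 genes tested, 30 matched the table with 41 promoters, whose median GC content was 58.3% and of which 46.3% held the GC box. The 37 of 47 matched genes that were not tested had a median of 57.7% over 51 promoters, against 52.7% over all promoters.

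*Kcnip2* (chr19:45791839-45816061, minus strand, GRCm38) stood at 212, 154, 243 and 199 normalized CPM in control-tagged replicates 1 to 4. In the TK-tagged replicates it stood at 259, 263, 291 and 232. The ranges overlapped only through control-tagged replicate 3, which lay above TK-tagged replicate 4. Its log2 fold change was 0.37 ± 0.14 (SE), with an unadjusted p of 0.0177 and an FDR of 0.489 in the quasi-likelihood test. The exact 2-sided permutation test over the libraries gave p = 0.0571, where 0.0286 is the smallest p that 4 against 4 libraries can give.

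*Kcnd3* (chr3:105452330-105674002, plus strand) had 13.5, 11.8, 10.6 and 14.6 normalized CPM in the control-tagged and 17.6, 18.8, 16.8 and 13.6 in the TK-tagged libraries. TK-tagged replicate 4 was the only one of its group within the control-tagged range. The groups differed by a log2 fold change of 0.41 ± 0.14 (SE), with an unadjusted p of 0.0135 and an FDR of 0.468. For *Kcnd3* the exact permutation test gave p = 0.0571. Its exons share 165 bases with *Kcnd3os* on the opposite strand, which had 8 to 17 counts against 158 to 217 for *Kcnd3*.

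*Kcnd2* (chr6:21215503-21729805, plus strand) had 11.0, 9.29, 9.28 and 13.4 normalized CPM in the control-tagged libraries. The TK-tagged libraries had 16.1, 15.7, 15.8 and 10.04. The first 3 TK-tagged replicates thus lay above all control-tagged libraries, and replicate 4 lay within them. On the log2 scale the difference was 0.42 ± 0.18 (SE), with an unadjusted p of 0.0347 and an FDR of 0.522. That p was above 0.05 when any one of replicates 1 to 3 of either group was left out, at 0.0585 to 0.0908, and 0.0548 with the replicate number as a block. The exact permutation test over all 8 libraries gave p = 0.0857.

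These subunits were also compared as ratios within each library. The log2 ratio of *Kcnip2* to *Kcnd2* counts was 4.224 ± 0.36 (SD, n = 4) over the control-tagged and 4.199 ± 0.23 over the TK-tagged libraries, a difference of -0.025 (exact permutation p = 0.886). That of *Kcnd3* to *Kcnd2* was 0.24 ± 0.10 (SD, n = 4) and 0.23 ± 0.16, a difference of -0.0066 (exact permutation p = 0.971). *Kcna4*, which encodes the pore of the slow component of the current, was near the filter on low counts at 8 to 18 counts, with 0.960 ± 0.275 and 1.197 ± 0.4005 normalized CPM (SD, n = 4). *Kcnd1*, the third Kv4 gene, had 2.12 ± 0.297 and 1.83 ± 0.536 normalized CPM (SD, n = 4), and thus a log2 fold change of -0.21 ± 0.26 (SE). Of the other KChIP genes, *Kcnip3* (chr2:127456498-127522094, minus strand) encodes a calcium sensor also described as a transcriptional repressor. It had 2.99, 3.99, 3.56 and 4.64 normalized CPM in the control-tagged and 2.19, 2.04, 3.24 and 3.11 in the TK-tagged libraries. This came to -0.51 ± 0.23 (SE) on the log2 scale, with an unadjusted p of 0.0423 and an FDR of 0.542, on 23 to 58 counts per library. The exact permutation test of *Kcnip3* gave p = 0.0857.

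Markers of ventricular cardiomyocytes were compared beside these genes. Of the 8 markers 1, *Tnni3*, had an unadjusted p under 0.05, and the median of their log2 fold changes was 0.12. Against the summed markers of the same library, *Kcnip2* had a log2 ratio of -8.45 ± 0.06 (SD, n = 4) with the control tag and -8.18 ± 0.06 with the TK tag. The difference of 0.27 came without overlap between the groups (exact permutation p = 0.0286). *Myh6* was the largest part of this sum, at 22322 to 37065 normalized CPM, and its log2 fold change was 0.07. Those of the single markers ran from -0.08 for *Actn2* to 0.36 for *Tnni3*, where that of *Kcnip2* was 0.37. The separation is thus given for the sum only, and ratios of *Kcnip2* to single markers were not tested. Ratios to marker sums were formed after the values were seen, for genes with an unadjusted p under 0.05 between the same groups. Their exact p is unadjusted and gives no separate support. Against the summed markers the difference was 0.29 for *Kcnd3* (exact permutation p = 0.171) and 0.30 for *Kcnd2* (exact permutation p = 0.229), with overlap in both. In LV tissue, fewer cells of a type and less RNA per cell cannot be told apart.

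*Kcnv2* (chr19:27322588-27337179, plus strand) encodes the silent subunit Kv8.2, which joins Kv2 pores. It had 9.36, 5.88, 10.4 and 9.12 normalized CPM in the control-tagged and 11.0, 15.003, 16.8 and 9.72 in the TK-tagged libraries. Control-tagged replicate 3 lay above TK-tagged replicate 4, and the groups were otherwise apart. The log2 fold change of 0.60 ± 0.21 (SE) was past the fold threshold, with an unadjusted p of 0.0151 and an FDR of 0.476. In the exact permutation test *Kcnv2* had p = 0.0571. Against the summed ventricular markers, the difference was 0.48 without overlap (exact permutation p = 0.0286). As for *Kcnip2*, this p is unadjusted and gives no separate support, and ratios to single markers were not tested.

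*Kcng2*, the abundant silent subunit, had a log2 fold change of -0.09 ± 0.17 (SE). *Kcna5*, which encodes Kv1.5, a pore of the slower repolarizing currents of the mouse, had 66.2, 79.8, 68.7 and 85.9 normalized CPM in the control-tagged libraries. In the TK-tagged libraries it had 55.4, 41.3, 72.9 and 67.8, with replicate 2 the lowest of all 8. Its log2 fold change was -0.34 ± 0.16 (SE), with an unadjusted p of 0.0573 and an FDR of 0.565.

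Among the rapid and slow delayed rectifiers, *Kcnh2* (chr5:24319589-24351604, minus strand) encodes ERG1, the pore of the rapid current. It had 75.7, 65.8, 90.1 and 72.6 normalized CPM in the control-tagged and 87.0, 98.8, 97.5 and 85.3 in the TK-tagged libraries. Control-tagged replicate 3 lay within the TK-tagged range and the other 3 below it. That is a log2 fold change of 0.28 ± 0.11 (SE), with an unadjusted p of 0.0258 and an FDR of 0.508. The exact permutation test of *Kcnh2* gave p = 0.0857. Against the summed ventricular markers the difference was 0.17, with overlap (exact permutation p = 0.143). *Kcnq1*, the pore of the slow current, had 63.5 ± 14.3 and 66.6 ± 6.90 normalized CPM (SD, n = 4), and thus a log2 fold change of 0.07 ± 0.15 (SE), which turned to -0.0475 without control-tagged replicate 2. Its auxiliary subunit gene *Kcne1* varied from 2.31 to 9.68 normalized CPM over the 8 libraries, and replicate 2 was the lowest in both groups. The log2 ratio of *Kcne1* to *Kcnq1* differed by -0.49 between the groups (exact permutation p = 0.429). *Kcne1* had a log2 fold change of -0.44 (unadjusted p = 0.314), which was -0.20 without control-tagged replicate 4 and -0.71 without control-tagged replicate 2. With the replicate number as a block its unadjusted p was 0.0334. The direction of *Kcne3* is not given, since it passed the filter through control-tagged libraries only.

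Of the 15 inward rectifier (Kir) genes 9 were tested, 4 of them higher and 5 lower in the TK-tagged libraries. *Kcnj2* and *Kcnj12* encode Kir2.1 and Kir2.2, which hold the resting potential of ventricular cardiomyocytes. *Kcnj2* had 24.5, 22.4, 19.2 and 33.6 normalized CPM in the control-tagged and 37.9, 45.9, 31.6 and 20.3 in the TK-tagged libraries. The groups overlapped, with control-tagged replicate 4 above TK-tagged replicate 3 and TK-tagged replicate 4 below 3 of the control-tagged libraries. *Kcnj2* differed by a log2 fold change of 0.44 ± 0.23 (SE; unadjusted p = 0.0766) and *Kcnj12* by one of 0.19 ± 0.14 (SE; unadjusted p = 0.217). Their log2 ratio differed by -0.21 (exact permutation p = 0.571).

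*Kcnj3* (chr2:55435970-55598145, plus strand) encodes Kir3.1, a pore of the channel that G protein βγ subunits open after acetylcholine binds its receptor. It had 49.0, 30.1, 39.3 and 38.9 normalized CPM in the control-tagged libraries and 50.1, 70.2, 58.6 and 50.7 in the TK-tagged libraries. All TK-tagged libraries lay above all control-tagged libraries, by a margin of about 1 normalized CPM between replicate 1 of each. The means were 39.3 ± 7.73 and 57.4 ± 9.37 normalized CPM (SD, n = 4), and thus a log2 fold change of 0.54 ± 0.15 (SE). The unadjusted p was 0.00382 and the FDR 0.442, and the exact permutation test gave p = 0.0286, the smallest it can give. *Kcnj3* exons share 1621 bases with *Gm26794* on the opposite strand, which had 1 to 5 counts per library against 415 to 791 for *Kcnj3*.

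Its partner in the same channel, *Kcnj5* (Kir3.4), had 62.2, 38.5, 97.9 and 55.9 normalized CPM in the control-tagged and 54.2, 59.5, 83.5 and 57.1 in the TK-tagged libraries. Replicate 3 was the highest in both groups. The groups differed by a log2 fold change of -0.0022 ± 0.24 (SE), which was -0.18 to 0.28 with 1 library left out. The log2 ratio of *Kcnj3* to *Kcnj5* was -0.63 ± 0.46 (SD, n = 4) and -0.14 ± 0.31, a difference of 0.50 (exact permutation p = 0.0857, 0.3 after Benjamini-Hochberg adjustment over the 7 subunit ratios). The channel is best known from the atria. The 5 atrial markers were at 3.68 to 5.91 normalized CPM in all in the control-tagged and 4.39 to 5.98 in the TK-tagged libraries, and 2 of the 5 could be tested. Against the summed ventricular markers, *Kcnj3* differed by 0.44 (exact permutation p = 0.0571).

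*Kcnj8* (chr6:142564837-142571614, minus strand) had the smallest p of the potassium channel genes. It encodes Kir6.1, the pore of the ATP-sensitive channel of vascular smooth muscle cells and pericytes, and lies near *Abcc9* (chr6:142587862-142702315, minus strand), the gene of its sulfonylurea receptor SUR2. It had 59.3, 71.8, 97.7 and 63.1 normalized CPM in the control-tagged libraries and 50.4, 36.8, 48.5 and 50.7 in the TK-tagged libraries, so that the groups did not overlap. The means were 73.0 ± 17.3 and 46.6 ± 6.63 normalized CPM (SD, n = 4). The log2 fold change of -0.65 ± 0.16 (SE) had an unadjusted p of 0.00173 and an FDR of 0.442, and the exact permutation test gave p = 0.0286. With the likelihood ratio test the FDR was 0.0587 and with DESeq2 it was 0.0716, both past the thresholds. Of all 13542 genes, the likelihood ratio test called 53 and DESeq2 called 32.

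*Kcnj11*, which encodes Kir6.2, the pore of the ATP-sensitive channel of cardiomyocytes, had 86.1, 62.7, 109.3 and 86.8 normalized CPM in the control-tagged and 89.3, 87.4, 100.9 and 83.7 in the TK-tagged libraries. The groups differed by 0.07 ± 0.14 (SE) on the log2 scale, and by -0.0594 without control-tagged replicate 2. On the log2 scale, the ratio of *Kcnj11* to *Kcnj8* was 0.24 ± 0.33 (SD, n = 4) over the control-tagged and 0.96 ± 0.24 over the TK-tagged libraries. The difference of 0.72 came without overlap (exact permutation p = 0.0286), and its adjusted p over the 7 ratios was 0.2. With the other ratios as they were, this is the smallest adjusted p that it could have. *Abcc9* had 220.0 ± 23.2 and 206 ± 28.3 normalized CPM (SD, n = 4), and thus a log2 fold change of -0.10 ± 0.12 (SE), and was at 25.4 ± 3.002 per kb over all 8 libraries. The ratio of *Kcnj11* to *Abcc9* differed by 0.19 on the log2 scale (exact permutation p = 0.257). *Abcc8*, the gene of the receptor SUR1, was at 7.04 ± 1.46 per kb, with a log2 fold change of 0.05 ± 0.18 (SE).

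Pericyte markers were lower on average in the TK-tagged libraries as well. All 6 passed the filter, their sum ranged from 906 to 1409 normalized CPM in the control-tagged and from 640.3 to 916 in the TK-tagged libraries, and the median of their log2 fold changes was -0.49. Of the 6, *Pdgfrb*, *Rgs5*, *Cspg4* and *Notch3* had an unadjusted p under 0.05. Smooth muscle markers had ranges of 547 to 1028 and 474 to 719 normalized CPM, a median log2 fold change of -0.0088, and none with an unadjusted p under 0.05. Of the 6 endothelial markers 3 had one, with sums of 1138 to 1455 and 1034 to 1181 normalized CPM, and leukocyte markers summed to 313 to 409.7 and 209.9 to 315. Their median log2 fold changes were -0.27 and -0.31, and those of red blood cell, conduction and fibroblast markers were -0.37, -0.20 and -0.16. The medians of ventricular, atrial, Schwann cell and nerve, and skeletal muscle markers were above 0, at 0.12, 0.08, 0.04 and 0.35. A lower median was thus not particular to pericyte markers. *Rgs5* made up most of the pericyte sum, at 639 to 1058 normalized CPM in the control-tagged and 458 to 651 in the TK-tagged libraries. Against the summed pericyte markers, *Kcnj8* had a log2 ratio of -3.95 ± 0.39 (SD, n = 4) and -4.11 ± 0.07, and the groups overlapped. That difference of -0.16 had an exact permutation p of 0.571, and the part of the pericyte markers in the difference of *Kcnj8* was otherwise not tested.

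**Figure D3:**
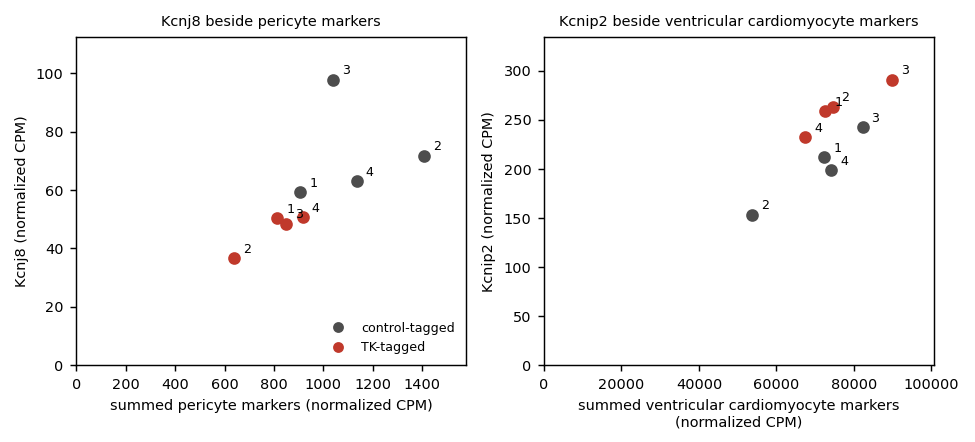
Normalized CPM of *Kcnj8* against the summed normalized CPM of 6 pericyte markers (left) and of *Kcnip2* against the sum of 8 ventricular cardiomyocyte markers (right), with 1 point per library numbered by replicate (control-tagged in grey, TK-tagged in red). The TK-tagged libraries lie low on both axes on the left, with replicate 2 lowest at 36.8 and 640.3, and above the control-tagged libraries of like marker sums on the right.

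Of the 14 two-pore-domain (K2P) genes 5 were tested, and 1 of them, *Kcnk3*, was higher in the TK-tagged libraries. *Kcnk3* had 374, 298, 416 and 294 normalized CPM in the control-tagged and 350.0, 418, 420.3 and 352 in the TK-tagged libraries. Its groups overlapped over most of their ranges, and its log2 fold change was 0.16 ± 0.13 (SE; unadjusted p = 0.268). Its exons share 229 bases with *Gm9899* on the opposite strand, which had 210 to 301 counts against 3678 to 6189 for *Kcnk3*. *Kcnk2*, which encodes the stretch-activated channel TREK-1, had 2.81 ± 0.422 and 2.14 ± 0.493 normalized CPM (SD, n = 4), and thus a log2 fold change of -0.39 ± 0.24 (SE; unadjusted p = 0.123).

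Of the calcium-activated channels, *Kcnn1*, *Kcnn2*, *Kcnn3* and *Kcnn4* were tested, which encode the small- and intermediate-conductance pores. *Kcnn2* (SK2) had 15.1 ± 1.66 and 16.8 ± 1.56 normalized CPM (SD, n = 4), and thus a log2 fold change of 0.16 ± 0.12 (SE). *Kcnn1* (SK1), the highest of these genes at 5.93 ± 1.03 per kb, had a log2 fold change of -0.15 ± 0.14 (SE). *Kcnmb1*, the auxiliary subunit of the large-conductance channel in smooth muscle, had 4.10 ± 0.917 and 2.995 ± 0.504 normalized CPM (SD, n = 4), with a log2 fold change of -0.45 ± 0.22 (SE; unadjusted p = 0.0638).

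*Kcnj15* and *Kcne4* were among the 5 genes with the largest absolute log2 fold changes, beside *Kcnj8*, *Kcnv2* and *Kcnj3*. *Kcnj15* (Kir4.2) had 4.57, 5.66, 2.42 and 2.48 normalized CPM in the control-tagged and 3.09, 1.60, 1.58 and 3.27 in the TK-tagged libraries. Its log2 fold change of -0.66 ± 0.35 (SE; unadjusted p = 0.0814) rested on 18 to 78 counts per library and was -0.40 without control-tagged replicate 2. *Kcne4*, an inhibitory partner of Kv7.1 and other pores, had 6.14, 8.27, 3.70 and 6.16 against 5.44, 3.11, 3.16 and 5.02 normalized CPM, a log2 fold change of -0.53 ± 0.27 (SE; unadjusted p = 0.0709). It was -0.34 without control-tagged replicate 2, and its unadjusted p was 0.0475 with the replicate number as a block. In both genes the groups overlapped.

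By family, the genes with an unadjusted p under 0.05 were spread over 5 groups. They were 2 of the 3 Kv4 genes, the 2 KChIP genes tested of 4, 2 of the 9 Kir genes tested and 1 of the 2 silent Kv genes tested. The last was *Kcnh2*, the only one of the 8 Kv10 to Kv12 genes that was tested. Of the KChIP genes *Kcnip2* was higher and *Kcnip3* lower, and of the Kir genes *Kcnj3* was higher and *Kcnj8* lower. Of all genes tested 8.96% were under that p, and families of so few genes were not tested against that share. The other families had none, among them the 6 Kv1, 2 Kv7, 5 K2P, 4 calcium-activated and 3 KCNE genes tested. In the Kv1 family 5 of the 6 were higher in the TK-tagged libraries, with unadjusted p of 0.0846 to 0.757 in the quasi-likelihood test. The exception was *Kcna5*. Over the 45 genes, 21 were higher and 24 lower. Their median log2 fold change was -0.020, where that of all genes tested was -0.0012.

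**Figure D4:**
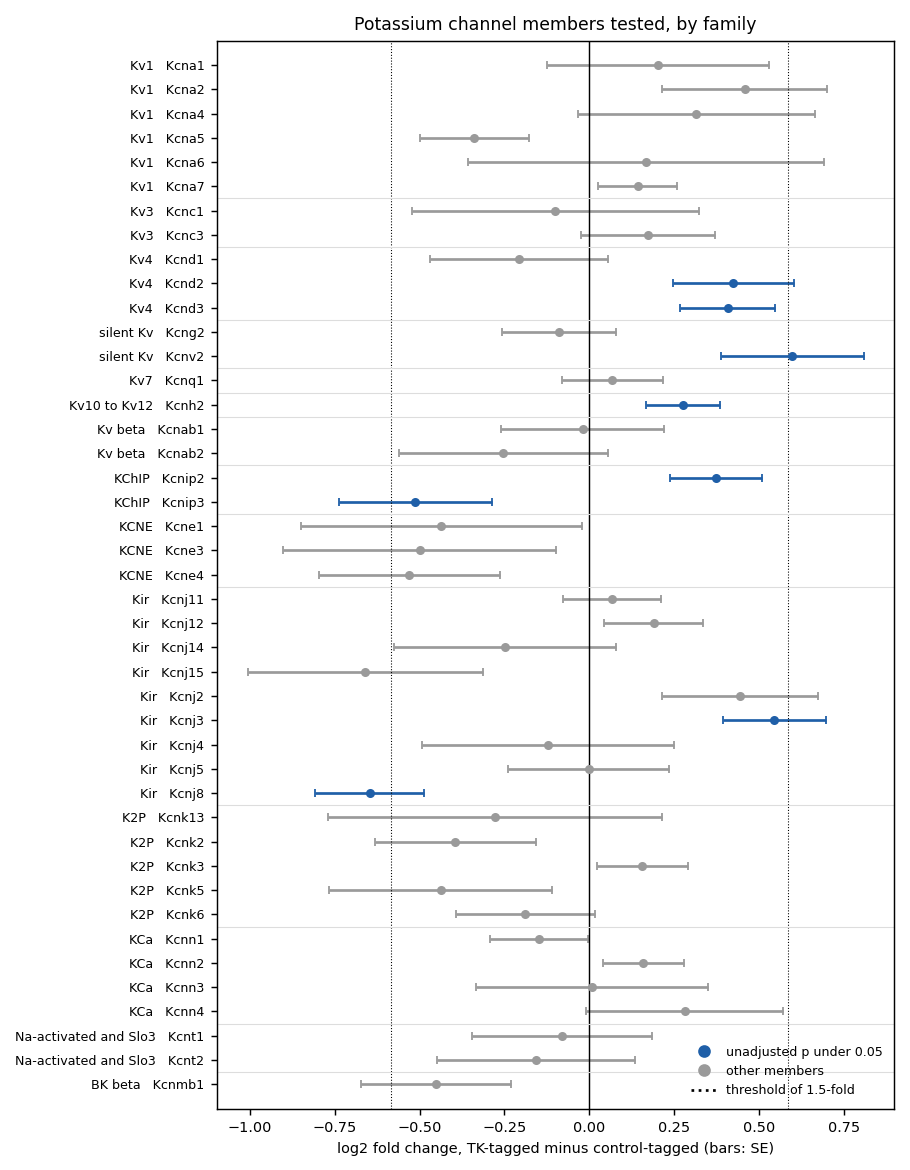
Log2 fold change (TK-tagged minus control-tagged) of 43 of the 45 potassium channel genes tested, ordered by family, with bars for the SE and dotted lines at the threshold of 1.5-fold in either direction. The 8 genes with an unadjusted p under 0.05 are in blue, and of the 43 *Kcnj8*, *Kcnj15* and *Kcnv2* lie past a dotted line.

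The potassium channel genes lay lower and varied more between libraries than the genes at large. Their median level was 5.13 normalized CPM against 19.6 for all genes tested, their median SD within groups was 0.29 against 0.21 on the log2 scale, and their median absolute log2 fold change was 0.25 against 0.13. The difference in spread was also present at like levels. For genes with a mean of at least 10 normalized CPM, the median SD within groups was 0.25 over 20 potassium channel genes and 0.17 over 8879 genes. In this range 7 of the 20 had an unadjusted p under 0.05, against 9.40% of all genes at that level, and among the 25 below it 1 had, *Kcnip3*, or 4% against 8.11% of all genes at that level. The division at this level was chosen after the values were seen.

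The steadiest gene was *Kcna7*, with an SD within groups of 0.14 on the log2 scale and a ratio of 1.37 between its highest and lowest library. *Kcnn2* followed with 0.15 and *Kcnh2* with 0.15. *Kcna6* was the most variable at 1.03, on low counts, followed by *Kcne1* at 0.81. Control-tagged replicate 2 and TK-tagged replicate 2 stood at the ends most often. The former was the lowest of the 8 libraries for 12 of the 45 genes and the highest for 9, and the latter was the lowest for 13 and the highest for 7. Control-tagged replicate 2, whose ventricular markers were the lowest, was the lowest of the 8 for *Kcnip2*, *Kcnh2*, *Kcnj3*, *Kcnj5*, *Kcnj11*, *Kcnj12* and *Kcnq1*, among others.

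**Figure D5:**
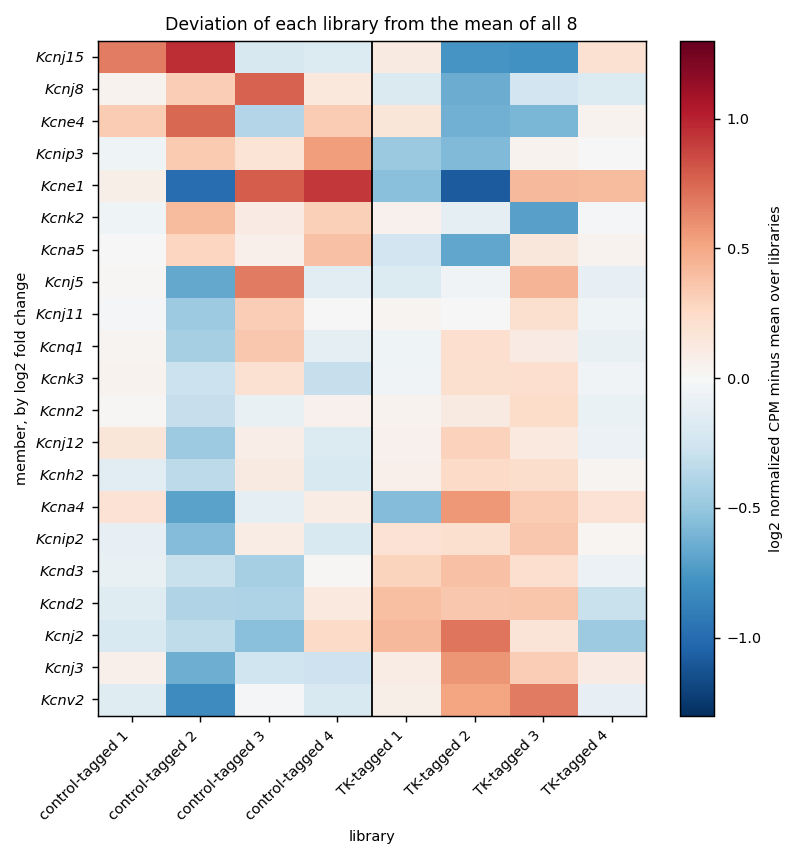
Deviation of each library from the mean of all 8, on the log2 scale of normalized CPM, for 21 of the 22 named potassium channel genes in order of their log2 fold change (blue for lower, red for higher, control-tagged libraries left of the line). Control-tagged replicate 2 is low for *Kcnj5*, *Kcnj11* and *Kcnq1*, and *Kcne1* is low in replicate 2 of both groups.

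Proteins that bind these channels were followed as a separate list of 20 genes, of which 15 were tested. None was called, 9 were higher and 6 lower, the median log2 fold change was 0.05, and 2 had an unadjusted p under 0.05, which 8.96% of all genes had. *Ppp1r9a*, which encodes the actin-binding scaffold neurabin, had 14.5 ± 1.41 and 18.6 ± 2.46 normalized CPM (SD, n = 4), which differ by 0.36 ± 0.13 (SE) on the log2 scale with an FDR of 0.480. *Dlg4*, which encodes the scaffold PSD-95 that clusters Kv1 and Kir2 channels, had 8.92 ± 1.24 and 7.07 ± 0.619, which differ by -0.34 ± 0.14 (SE) with an FDR of 0.534. Of 14 transcription factors known to act on channel genes or on ventricular identity, such as the Iroquois factors and *Klf15*, all were tested. None had an unadjusted p under 0.05, 11 were higher and 3 lower, and their median log2 fold change was 0.14.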

How the data were processed

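LV RNA from 8 mice was sequenced, and the authors deposited 1 table of whole-number read counts per gene without normalization. The authors trimmed reads with Trim Galore 0.4.4, aligned them to GRCm38 with STAR 2.5.4b and counted them on GENCODE M16 genes with featureCounts. Whether strand and reads with several alignments entered the counts is not given in the sources used here. The labels describe depletion of ribosomal RNA and the methods poly-A selection.

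Genes that reached a CPM of 1 in 2 or more libraries were kept and scaled with TMM factors. The main test was edgeR's quasi-likelihood F test (glmQLFit and glmQLFTest; edgeR 4.0.16, R 4.3.3), with Benjamini-Hochberg adjustment over all genes tested. SE is the absolute log2 fold change over the square root of F. Normalized CPM is the CPM on the TMM-scaled library size, with a prior count of 2 on the log2 scale. Exon lengths and positions are those of GENCODE M21, and promoters come from RefSeq. Subunit ratios (prior count 0.5) and single genes were compared with exact 2-sided permutation tests in SciPy 1.17.1. The fit was tested on simulated data.

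The named genes are those tested that carry a known ventricular current, those with an unadjusted p under 0.05 or groups that do not overlap, and the 5 with the largest absolute log2 fold change. *Kcnd1*, *Kcng2*, *Kcnn1*, *Kcnmb1*, *Kcna6*, *Kcna7* and the genes not tested were named with their values known. Values of 2 of the genes tested are not reported here. The genes and lists were chosen with earlier results of these data known. Alternatives were DESeq2 1.42.0, the likelihood ratio test of edgeR, other size factors, filters and dispersions, each library left out, a replicate block, another prior count and the longest transcript. Ratios to marker sums were added after the values were seen, for genes with an unadjusted p under 0.05, and their p was not adjusted.

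Over the 12 pairs of replicates of one group, chi-square divided by its degrees of freedom was 6.77 to 49.9, above counting noise.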

Additional observations from a re-analysis of the deposited data

Results flagged for a closer look

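Of 56 groups of 4 libraries examined over 21 of the named genes and the 7 subunit ratios, 2 held a library that stood far from the others, where chance gives about 1 in 20. *Kcnj8* had 36.75 normalized CPM in TK-tagged replicate 2, where the nearest library of that group had 48.51, a gap of 0.843 of the range. *Kcnd2* had 10.04 normalized CPM in TK-tagged replicate 4, with the nearest library at 15.71 and a gap of 0.938 of the range. Without TK-tagged replicate 2 the log2 fold change of *Kcnj8* was -0.55 (unadjusted p = 0.00614 in the quasi-likelihood test of edgeR). That of *Kcnd2* was 0.56 without TK-tagged replicate 4 (unadjusted p = 0.0039), and its p lay between 0.0585 and 0.0908 without any one of replicates 1 to 3 of either group.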

How the results depend on the processing

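The 22 named genes kept their direction and their side of the threshold in 342 of 352 comparisons over 16 alternatives, and 19 of them never changed sign. The side of the threshold was a weak check, since no named gene was called in the main fit. Of all genes, the alternatives called only 1 to 53. *Kcnj8* was called with the likelihood ratio test and with DESeq2, which made 1 call among the potassium channel genes each where the quasi-likelihood test made 0. Of all 13542 genes, the likelihood ratio test called 53, DESeq2 32 and the quasi-likelihood test 1. *Kcnd3*, *Kcnj3* and *Kcnj8* had an unadjusted p under 0.05 in every alternative fit of edgeR and in DESeq2. The exact permutation test is not among these fits and gave p = 0.0571 for *Kcnd3*. The number of potassium channel genes with an unadjusted p under 0.05, 8 as reported, was 5 to 12 with 1 library left out. It was 5 without control-tagged replicate 2, TK-tagged replicate 2 or TK-tagged replicate 3 and 12 without TK-tagged replicate 4. Of all genes, 5.25% to 10.1% were under that p in these fits. Without the filter on low counts the number was 12 of 78 genes, or 15.4%, against 7.16% of all genes. The median log2 fold change was -0.15 without that filter, which adds 33 genes of few counts. *Kcnj5* changed sign with total counts (0.0045), with the replicate block (0.0512) and with 1 library left out (-0.18 to 0.28). *Kcnq1* and *Kcnj11* did so without control-tagged replicate 2 (-0.0475 and -0.0594, with up to 0.21 and 0.20 without another library). With 1 library left out, the ratio of *Kcnd3* to *Kcnd2* differed by -0.0762 to 0.04 and that of *Kcnip2* to *Kcnd2* by -0.14 to 0.14, and that of *Kcnj11* to *Kcnj8* by 0.58 to 0.82. The cause was not tested. Over the longest transcript, 7 of 22 levels per kb moved by more than their SD.

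Libraries that share a replicate number deviated together with correlations of -0.03, 0.03, 0.34 and -0.06. Only that of number 3 was over 0.1, and its control-tagged library matched its own TK-tagged library best. The numbers as a whole were therefore not taken as pairs in the main fit. With the replicate block 10 potassium channel genes had an unadjusted p under 0.05, or 22.2%, against 9.19% of all genes. With it 0 of them were called, where 1 of the 13542 genes was. A gene near 1 CPM has 11 to 16 counts, and *Kcna4* at this level had an SE of 0.35 on the log2 scale.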
